A study of Homo sapiens with 16 samples.

Results

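Sites open only in DND41 were regions of the genome with an ATAC-seq peak in all 4 untreated DND41 libraries and in none of the 4 untreated MOLT4 libraries. ATAC-seq marks open chromatin through the insertion of adapters by the Tn5 transposase, and a peak is a stretch where insertions pile up. Peaks of all 16 libraries on chromosomes 1 to 22 and X were joined into 131357 regions wherever they had at least 1 base in common, of which 2399 met the rule. With every list reduced to its 26145 widest peaks, the length of the shortest, 1508 did. They made up 9.67% of the 24799 regions with a peak in all 4 DND41 DMSO libraries. Of the others, 18483 had one in each of the 8 DMSO libraries of both lines and are called shared sites here, and 3917 had a peak in 1 to 3 of the 4 MOLT4 DMSO libraries. The rule used the DMSO libraries of both lines, so presence and width of peaks in those libraries are given as a description and were not tested.

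DND41 and MOLT4 are established human cell lines from T-cell acute lymphoblastic leukaemia, each standing here for 1 leukaemia. Both were grown in serum-containing medium with DMSO, the solvent control, or with 100 nM ACBI-1 for 3 h or 24 h, giving 8 groups of 2 libraries. The labels do not say whether a group's 2 libraries are from separate cultures. Each p-value therefore reflects only how these libraries vary, and that variation may be technical. Lines were assigned by sample title, since the cell line field named the other line for 8 of 16 samples, and the line code inside the peak names matched the title in all 16. The labelled cell type could not be checked against marker genes, because no gene was assigned to a region. Peak names carried the tag p04 in all 8 libraries of 3 h and p03 in all 8 of 24 h, so time and whatever the tag stands for cannot be told apart.

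ACBI-1 is a PROTAC, a molecule that brings a target protein to a ubiquitin ligase for destruction. Its targets are SMARCA2 and SMARCA4, the motors of the SWI/SNF (BAF) chromatin remodelling complex, and the PBRM1 subunit. SWI/SNF slides and evicts nucleosomes and keeps many regulatory sites accessible. Promoters of widely expressed genes tend to be open in all cell types, whereas sites open in one cell type and closed in a related one are often enhancers, the distal elements that carry cell identity. What SWI/SNF loss does to a site that only 1 of 2 related leukaemias has open is therefore a question about the most line-specific part of the accessible genome.

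The DND41-only sites were narrow. Averaged over the 4 DND41 DMSO libraries, a member's widest peak had a median of 343 bp, with the middle 50% of members between 271 and 447 bp. Shared sites had a median of 595.75 bp and quartiles of 424.75 and 788 bp. Per library, the median peak at members was 348 and 256 bp at 3 h and 382 and 363 bp at 24 h, so replicate 2 at 3 h gave narrower peaks than the other 3. Only 216 members, 9.0% of them, averaged 600 bp or more, against 49.5% of shared sites.

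Widths on either side of the rule's edge were as follows. The 1046 regions with a peak in all 4 DND41 and in exactly 1 MOLT4 DMSO library had a median width of 318 bp. The 2202 regions with a peak in 3 of 4 DND41 and in no MOLT4 DMSO library had a median of 252 bp. The members stood at 343 bp, close to the first set and above the second, whose median lay under their own lower quartile of 271 bp. By the rule no member overlapped a MOLT4 DMSO peak, and few lay within 1 kb of one. The median distance from a member to the nearest region with a MOLT4 DMSO peak was 14578 bp, with quartiles of 6022 and 33501 bp. It was under 1 kb for 104 members, 4.34%, under 10 kb for 931, 38.8%, and under 100 kb for 94.5%. Regions open only in MOLT4 by the same rule were spaced alike from DND41 DMSO peaks. Their median distance was 15022 bp, with 5.57% under 1 kb, 39.0% under 10 kb and 92.8% under 100 kb.

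In DND41 cells given ACBI-1, fewer than 2 in 3 of these sites had a peak in any one library. At 3 h, 1083 members (45.1%) had a peak in replicate 1 and 1526 (63.6%) in replicate 2. At 24 h the numbers were 892 (37.2%) and 850 (35.4%). The 3 h libraries lay above both 24 h libraries but far apart from each other. List lengths did not follow that order, with 26145 and 31380 peaks at 3 h and 33145 and 32113 at 24 h. Shared sites had a peak in 86.6 and 92.2% of cases at 3 h and in 81.8 and 81.1% at 24 h, above the members in each of the 4 libraries. The difference between 24 h and 3 h at members was -18.1 percentage points (SE 9.27, n = 2 each, two-sided exact permutation p = 0.333, the smallest that 2 against 2 allow). It was -27.4 points without replicate 1 and -8.87 points without replicate 2 of the 3 h group, and -30.6 points when every list was cut to its 26145 widest peaks. That cut took the narrowest peaks, none from 3 h replicate 1 and more from each 24 h list than from 3 h replicate 2. Its part in the larger difference was not tested. Members have no DMSO level to set beside this difference, and held-out sites, described below, were also lower at 24 h with DMSO.

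**Figure D1:**
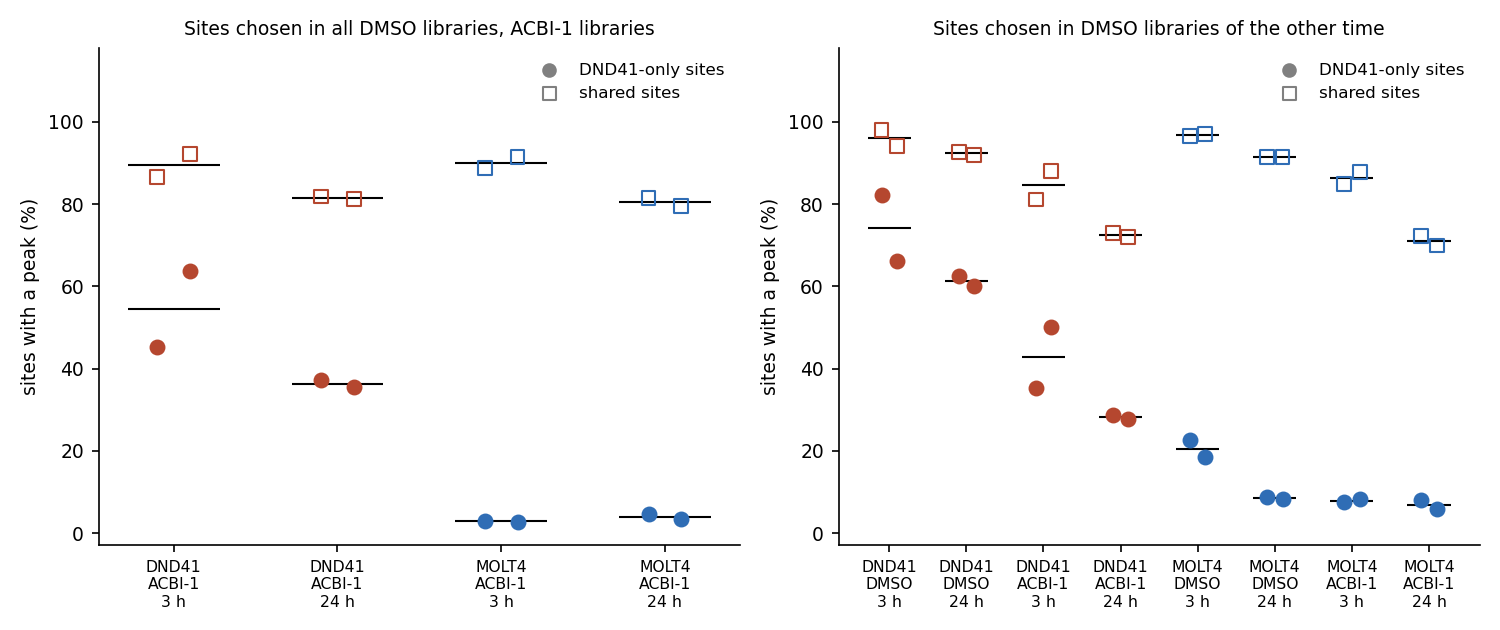
Percent of sites with a peak, 1 point per library and a bar at the mean of each group, for DND41-only sites (filled circles) and shared sites (open squares). Left, sites chosen in all 8 DMSO libraries and scored in the ACBI-1 libraries, where DND41-only sites ran from 35.4 to 63.6% in DND41 and from 2.79 to 4.59% in MOLT4. Right, sites picked in the DMSO libraries of one time, scored at the other time, across the 16 libraries.

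The line difference was present in libraries the rule had not used. Members had a peak in 2.83 and 2.79% of cases in the MOLT4 ACBI-1 libraries of 3 h and in 4.59 and 3.33% in those of 24 h. The lowest DND41 ACBI-1 library, at 35.4%, lay far above the highest MOLT4 one. The mean was 45.3 ± 12.9% in DND41 and 3.39 ± 0.836% in MOLT4 (SD, n = 4 each). The difference was 42.0 points (SE 4.65), in 8 of 8 pairs of libraries of the same time. The two-sided exact permutation p, exchanging lines within time, was 0.0556, the smallest that 36 exchanges allow, and 0.111 after Benjamini-Hochberg adjustment over the 8 tests made. No exchange within time can pass 0.05 here, so directions below are given by values and by the number of library pairs that show them. Without strata for time the same 42.0 points had an exact permutation p of 0.0286. That exchange treats 3 h and 24 h libraries as alike, although the tags in their peak names differ.

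Counted over single sites, the fates were spread widely. Of 2399 members, 596 (24.8%, 95% Wilson interval 23.2 to 26.6%) had no peak in any of the 4 DND41 ACBI-1 libraries, where 7.99% of all 24799 regions open in DND41 had none. At the other end, 446 (18.6%, 17.1 to 20.2%) had a peak in all 4, against 60.4% of all such regions. Among shared sites, 4.13% had no peak in any of the 4 and 73.0% had one in all 4. The intervals cover counting error over sites only. All these sites had been chosen for a peak in all 4 DND41 DMSO libraries, so a share under 100% includes sites that a further DMSO library would also have missed. With replicate 2 of the 3 h ACBI-1 group of DND41 left out, members with no peak in the remaining 3 libraries numbered 38.4%, and with lists of equal length 10.5% had none in any of the 4 and 29.4% had one in all 4.

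More members lacked an ACBI-1 peak at 24 h than at 3 h. At 3 h, 731 members (30.5%) had a peak in neither ACBI-1 library, where 10.6% of all regions open in DND41 had none. At 24 h the number was 1277 (53.2%), where the background was 22.1%. Of the 731 absent at 3 h, 596 (81.5%) were also absent at 24 h, and both 24 h libraries had a peak at 45 (6.16%). Among the 1030 shared sites absent at 3 h, 74.1% were absent at 24 h and 13.0% were back in both. Of the 941 members with a peak in both 3 h libraries, 269 (28.6%) had none at 24 h and 446 (47.4%) had one in both. Among shared sites with both peaks at 3 h, 6.77% had none at 24 h and 86.5% had both. Going from present at 3 h to absent at 24 h was thus seen at 11.2% of all members, with a background of 6.89%, and the reverse at 1.88%, with a background of 1.12%. The rule fixed members at a peak in every DND41 DMSO library, so they give no DMSO level per time. Held-out DND41-only sites, described below and chosen separately for each time, were also lower at 24 h with DMSO, at 61.3% against 74.1%. There ACBI-1 minus DMSO was -31.4 points at 3 h and -33.1 points at 24 h. Time cannot be told apart from the tag in the peak names.

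**Figure D2:**
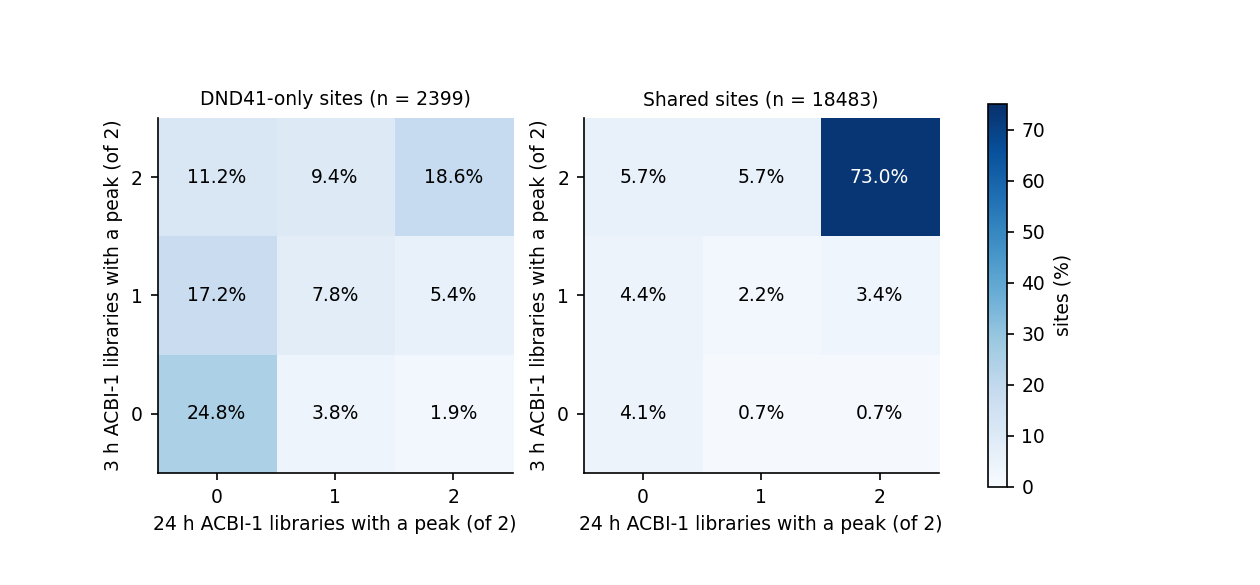
Percent of DND41-only sites (left) and shared sites (right) by the number of 3 h ACBI-1 libraries (vertical) and 24 h ACBI-1 libraries (horizontal) of DND41 with a peak. Members gathered in the corner with none, at 24.8%, and were spread over the other cells, while 73.0% of shared sites sat in the corner with a peak in all 4.

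Width in DMSO cells and fate went together. Members with no peak in any of the 4 ACBI-1 libraries had a median DMSO width of 278 bp, those with a peak in 1 to 3 libraries 351 bp, and those with a peak in all 4 libraries 499 bp. From 200 to 300 bp, 25 and 44.3% of 779 members had a peak at 3 h and 26.2 and 25.4% at 24 h. From 400 to 600 bp, the shares of 637 members were 63.6 and 81.6% at 3 h and 46.5 and 41.9% at 24 h. At 600 bp or more, 89.4 and 98.6% of 216 members had a peak at 3 h and 83.8 and 82.9% at 24 h, and none of these broad members was without a peak in all 4. The gap between times was therefore seen at middle and broad sites in both 3 h libraries, and at sites under 300 bp in replicate 2 alone.

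Shared sites of the same width had a peak more often, in every width band and every one of the 4 libraries. From 300 to 400 bp, the mean over the 4 libraries was 39.3% for members and 64.1% for shared sites. From 400 to 600 bp it was 58.4 and 84.0%, and at 600 bp or more 88.7 and 98.3%. These values carry no DMSO comparison, since both kinds of site were chosen to have all 4 DND41 DMSO peaks.

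**Figure D3:**
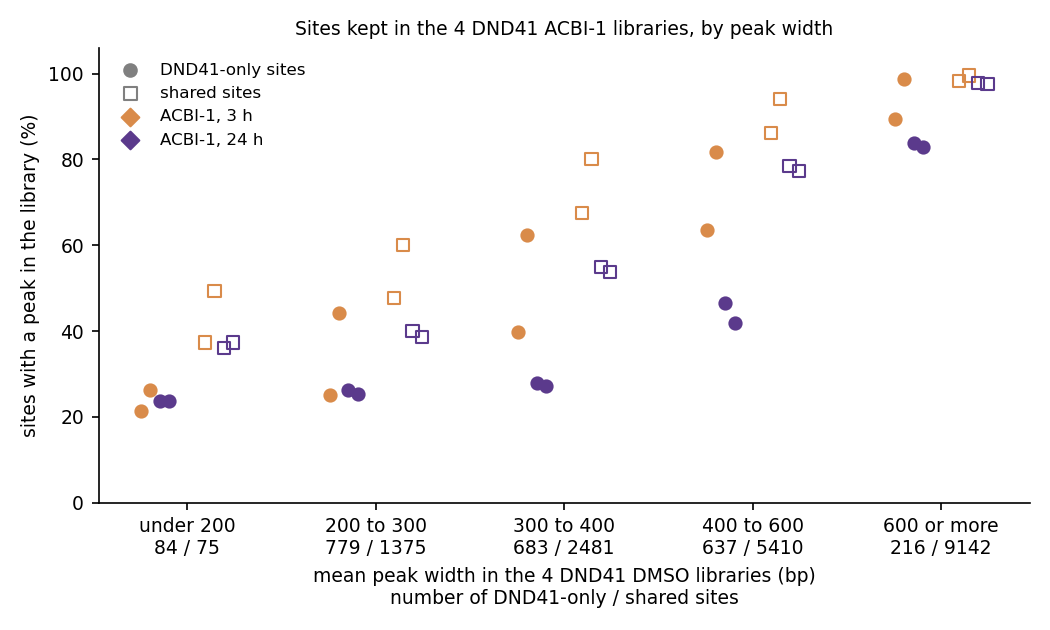
Percent of sites with a peak in each of the 4 DND41 ACBI-1 libraries, by mean peak width in the 4 DND41 DMSO libraries, for DND41-only sites (filled circles) and shared sites (open squares), with 3 h in orange and 24 h in purple. The shares were higher in wider bands, and the members lay below the shared sites of the same band and library throughout.

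Individual members show the range. The 3 broadest members with a peak in all 4 DND41 and no MOLT4 ACBI-1 libraries, out of 382 of that kind, were on chromosomes 4, 5 and 7 (hg19). The site on chromosome 5 from 66461426 to 66462823 had peaks of 1311 and 1149 bp at 3 h and 1289 and 1184 bp at 24 h with DMSO. With ACBI-1 it had 685 and 1187 bp at 3 h and 1192 and 1342 bp at 24 h, so that 1 library was narrower than all DMSO libraries and the others overlapped with them or exceeded them. The site on chromosome 7 from 17273277 to 17274662 had DMSO peaks of 1237, 1228, 1114 and 1178 bp. With ACBI-1 its peaks were 716 and 1207 bp at 3 h and 600 and 870 bp at 24 h, below every DMSO value except in replicate 2 at 3 h. The site on chromosome 4 from 140586542 to 140588295 had DMSO peaks of 1579, 436, 1508 and 1515 bp, and 453, 665, 990 and 1020 bp with ACBI-1. Replicate 2 at 3 h stood apart from the other DMSO libraries there.

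The broadest of the 596 members with no ACBI-1 peak in DND41 were about 570 to 580 bp wide in DMSO cells. On chromosome 12 from 75835554 to 75836243 the DMSO peaks were 532 and 518 bp at 3 h and 648 and 639 bp at 24 h. On chromosome 10 from 62587634 to 62588335 they were 494, 656, 603 and 556 bp, and on chromosome 18 from 21547121 to 21547899 they were 603, 560, 433 and 673 bp. All 3 sites had peaks of ordinary to large width in every DMSO library and a peak in no ACBI-1 library of either line.

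Members present at 3 h and absent at 24 h reached larger widths. On chromosome 6 from 78483723 to 78484747, peaks of 812, 664, 748 and 1012 bp in the DMSO libraries stood beside ACBI-1 peaks of 356 and 735 bp at 3 h and no peak at 24 h. On chromosome 12 from 65926527 to 65927449, DMSO peaks of 903, 611, 901 and 634 bp stood beside 242 and 270 bp at 3 h, and on chromosome 18 from 8948801 to 8949631, DMSO peaks of 828, 563, 751 and 748 bp beside 177 and 302 bp. At these last sites both 3 h ACBI-1 peaks were narrower than any DMSO peak, and the 24 h ACBI-1 libraries, which are other libraries, had no peak.

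The reverse pattern, no peak at 3 h and both at 24 h, was seen at 45 members. The broadest was on chromosome 21 from 35392378 to 35393120, where the DMSO peaks measured 595, 270, 711 and 650 bp and the ACBI-1 peaks 370 and 416 bp at 24 h. The next was on chromosome 6 from 105417711 to 105418710, with 511, 188, 763 and 729 bp in DMSO and 232 and 206 bp with ACBI-1 at 24 h. The third, on chromosome 13 from 41566976 to 41567652, had 677, 206, 391 and 666 bp in DMSO and 273 and 446 bp with ACBI-1, and also a peak of 432 bp in 1 MOLT4 ACBI-1 library of 24 h. In all 3 the DMSO peak of replicate 2 at 3 h was the narrowest.

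Where all 4 ACBI-1 libraries kept a peak, it was somewhat narrower in most cases. Over the 446 such members, the mean of the 2 ACBI-1 widths lay below that of the 2 DMSO widths of the same time at 288 sites at 3 h, with 156 wider and 2 equal, and at 301 sites at 24 h, with 145 wider. The median log2 ratio of ACBI-1 to DMSO width was -0.10 at 3 h and -0.16 at 24 h. Library medians over these 446 members overlapped at 3 h, with 503 and 403 bp in DMSO and 338.5 and 458.5 bp with ACBI-1. They did not at 24 h, with 531.5 and 526 bp in DMSO and 449 and 425.5 bp with ACBI-1. These members were selected for their ACBI-1 peaks, so the comparison is a description.

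To obtain a DMSO level that the choice of sites did not fix, sites were chosen a second time in the DMSO libraries of 1 time and scored in the libraries of the other. A held-out DND41-only site had a peak in both DND41 and neither MOLT4 DMSO library of the choosing time. There were 5791 such sites scored at 3 h and 5899 scored at 24 h. In DND41 at 3 h, DMSO libraries had a peak at 82.2 and 66.1% of them and ACBI-1 libraries at 35.3 and 50.2%. At 24 h the values were 62.6 and 60.0% with DMSO and 28.6 and 27.8% with ACBI-1. At each time both ACBI-1 libraries lay below both DMSO libraries, in 8 of 8 pairs. The difference was -32.2 points (SE 5.51, n = 4 each, two-sided exact permutation p = 0.0556, adjusted 0.111), at -31.4 points at 3 h and -33.1 points at 24 h. It was -20.9 points without replicate 1 of DND41 DMSO at 3 h and -18.7 points with lists of equal length.

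Held-out shared sites in the same DND41 libraries were lower with ACBI-1 by less, at -11.6 points at 3 h and -19.8 points at 24 h. The DND41-only sites minus the shared sites thus differed between arms by -16.5 points (SE 3.66), in 8 of 8 pairs (exact permutation p = 0.0556, adjusted 0.111). That value was -6.32, -7.98 and -7.74 points without replicate 1 at 3 h, replicate 1 at 24 h and replicate 2 at 24 h of DND41 DMSO, with an exact permutation p of 0.50 in the first case. When shared sites were weighted to the same widths, over 20 bins, their 3 h share was 89.1% with DMSO and 61.4% with ACBI-1, and their 24 h share 77.3 and 47.0%. The remaining difference of -3.21 points was within the spread (SE 1.88, 7 of 8 pairs, exact permutation p = 0.111, adjusted 0.178). It was positive without any of those same 3 DMSO libraries, at 5.31, 6.45 and 8.02 points, and -0.49 without replicate 2 of DND41 DMSO at 3 h. Equal list lengths gave -5.69 points.

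On a ratio scale the width-matched comparison reads differently. ACBI-1 libraries had 0.577 of the DMSO percent at DND41-only sites and 0.689 at width-matched shared sites at 3 h, and 0.461 against 0.608 at 24 h. The log2 ratio of the 2 site classes differed between arms by -0.33 (SE 0.07), in 8 of 8 pairs (exact permutation p = 0.0556, the smallest possible, adjusted 0.111 over the 4 tests added after the data were seen). This ratio was not recomputed with single libraries left out, where the difference in points had changed sign for some DMSO libraries. Even in DMSO libraries of DND41, width-matched shared sites had a peak more often than DND41-only sites, at 89.1 against 74.1% at 3 h. Read depth is unknown, and what lies behind that gap was not tested.

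Peak width at the held-out sites was lower with ACBI-1 in 7 of 8 pairs of libraries, overlapping between arms at 3 h and not at 24 h. The median width of the peaks found was 309 and 249 bp with DMSO and 248.5 and 305 bp with ACBI-1 at 3 h, and 344 and 333.5 bp with DMSO and 308 and 311 bp with ACBI-1 at 24 h. Over both times the mean difference was -15.8 bp, within the spread (SE 20.8, exact permutation p = 0.333, adjusted 0.381). It was -0.50 bp without replicate 1 of DND41 DMSO at 3 h and -29.8 bp with the 3 h replicate 2 of DND41 ACBI-1 left out. With lists of equal length it was -81.4 bp. Keeping only the widest peaks took more narrow peaks from the longer DMSO lists, which widens DMSO medians by construction.

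MOLT4 ACBI-1 libraries did have a peak at some members. There were 225 members, 9.38% (95% Wilson interval 8.28 to 10.6%), with a peak in at least 1 of the 4, where 7.21% of the 37608 regions with a peak in some DND41 DMSO library and no MOLT4 DMSO library had one. Most of that background, 28605 regions, had a peak in 1 DND41 DMSO library only. The 2202 regions in 3 of 4 DND41 and no MOLT4 DMSO library had a MOLT4 ACBI-1 peak more often than members, at 4.18 and 5.31% against 2.83 and 2.79% at 3 h and 7.81 and 5.36% against 4.59 and 3.33% at 24 h. By library the numbers of members were 68 and 67 at 3 h and 110 and 80 at 24 h. Most were single sightings. In 1 library only were 155 members, in 2 libraries 46, in 3 libraries 18 and in all 4 libraries 6. Both 3 h libraries had 20 members, 0.834%, with a background of 0.258%, and both 24 h libraries 32, or 1.33%, with a background of 0.638%. The peaks were narrow, with medians of 238 and 225 bp at 3 h and 257.5 and 256.5 bp at 24 h. Of the 225, 15 (6.67%) lay within 1 kb of a MOLT4 DMSO peak, against 4.09% of the others.

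Untreated MOLT4 libraries give the level against which this has to be read. At held-out DND41-only sites, MOLT4 DMSO libraries had a peak in 22.5 and 18.5% of cases at 3 h and 8.87 and 8.20% at 24 h. MOLT4 ACBI-1 libraries had one in 7.60 and 8.19% at 3 h and 8.0 and 5.85% at 24 h, below the DMSO libraries of the same time in 8 of 8 pairs. The difference was -7.12 points (SE 1.15, n = 4 each, exact permutation p = 0.0556, adjusted 0.111), at -12.6 points at 3 h and -1.61 at 24 h. It was -3.81 and -3.51 points without replicates 1 and 2 of DND41 DMSO at 24 h, and -1.15 points with lists of equal length. More peaks at DND41-only sites in MOLT4 after ACBI-1 were thus not seen at the level of libraries.

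The 6 members with a peak in all 4 MOLT4 ACBI-1 libraries and no MOLT4 DMSO library made up 0.25% of members, with a background of 0.0346%. That background is 13 of 37608 regions and includes these 6. Most of its regions, 28605, had a peak in 1 DND41 DMSO library only. The 5 broadest of the 6 members, by DND41 DMSO width, were as follows. On chromosome 4 from 175143296 to 175143867 the MOLT4 ACBI-1 peaks were 280, 294, 292 and 330 bp. In DND41 that site had 278, 323, 271 and 347 bp with DMSO and 317, 300, 470 and 482 bp with ACBI-1, so the 24 h ACBI-1 peaks were the widest. On chromosome 6 from 134962029 to 134962845 the MOLT4 ACBI-1 peaks were 229, 277, 422 and 266 bp, and DND41 had 317, 285, 501 and 346 bp with DMSO and 347, 456, 647 and 490 bp with ACBI-1. On chromosome 4 from 15884144 to 15884666 MOLT4 had 203, 259, 286 and 336 bp with ACBI-1, and on chromosome 3 from 195414179 to 195414679 it had 236, 293, 323 and 237 bp. On chromosome 5 from 158122478 to 158123117 it had 297, 272, 466 and 208 bp. The first 4 of these sites had a peak in all 4 DND41 ACBI-1 libraries, and the last had one in 3 of them.

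Members seen in a MOLT4 ACBI-1 library were also found more often in DND41 ACBI-1 libraries, which had no part in picking them. Of the 225, 47.1 and 69.8% had a peak at 3 h and 69.8 and 70.2% at 24 h. Of the 2174 not seen in MOLT4, 44.9 and 63.0% had one at 3 h and 33.8 and 31.8% at 24 h. The groups lay close together at 3 h and far apart at 24 h. Over the 4 libraries the difference was 20.8 points (SE 9.5), in 4 of 4 libraries, with an exact permutation p over sign changes of 0.125, the smallest that 4 libraries allow, in a test added after the data were seen (adjusted 0.125). The seen members were the narrower ones, with a median DMSO width of 291.5 bp against 349 bp, whereas among all members narrow sites had a peak less often. From 200 to 300 bp, 63.6 and 71.8% of 110 seen and 20 and 17.8% of 669 unseen members had a peak at 24 h. At 600 bp or more the 24 h shares were 84.6 and 84.6% for 13 seen and 83.7 and 82.8% for 203 unseen. Seen members were higher in each band and library except 3 h replicate 2 from 400 to 600 bp, at 74.2 against 82.0%.

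**Figure D4:**
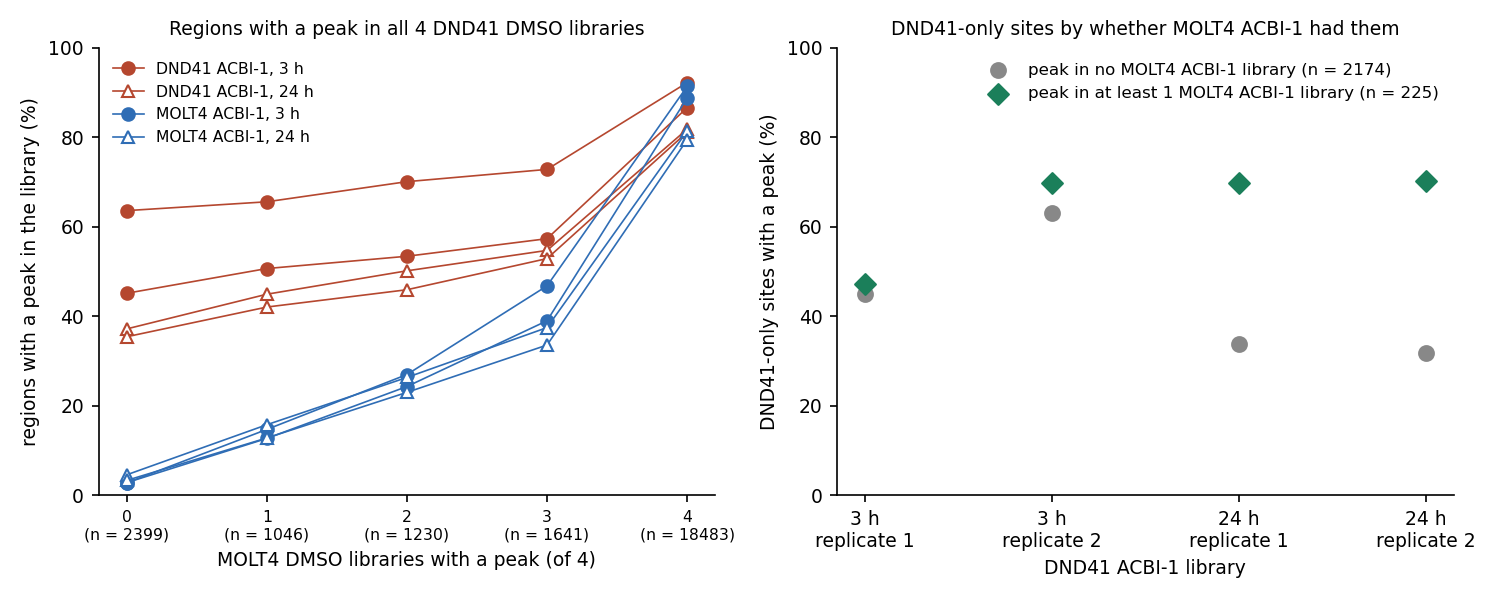
Left, percent of regions with a peak in each ACBI-1 library against the number of MOLT4 DMSO libraries with a peak, for regions with a peak in all 4 DND41 DMSO libraries; the members are at 0. Right, percent of members with a peak in each DND41 ACBI-1 library for the 225 seen in at least 1 MOLT4 ACBI-1 library (diamonds) and the 2174 seen in none (circles), which differ most at 24 h.

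The share of regions kept by DND41 was higher with each further MOLT4 DMSO library that had them. Over the 4 DND41 ACBI-1 libraries it averaged 45.3% for the members, 50.8% for regions in 1 MOLT4 DMSO library, 54.9% for 2, 59.4% for 3 and 85.4% for 4. The order held in each of the 4 libraries. Median DMSO width in DND41 was 343, 318, 324, 341 and 596 bp in the same order. The part of width or of any other property in this order was not tested. Regions in 3 of 4 DND41 and no MOLT4 DMSO library, just outside the rule on the other side, averaged 23.1%.

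The mirror set, 4543 regions open only in MOLT4 by the same rule, was larger and had a median width of 398 bp in its own line. In MOLT4 ACBI-1 libraries 59.6 and 64.7% of them had a peak at 3 h and 44.9 and 41.6% at 24 h. The DND41-only sites in DND41, at 45.1, 63.6, 37.2 and 35.4%, were lower in 7 of 8 pairs, by -7.37 points (SE 4.88, exact permutation p = 0.111, adjusted 0.125). In the other line, MOLT4-only sites had a peak in 0.594, 0.947, 1.36 and 1.30% of cases in the DND41 ACBI-1 libraries, and DND41-only sites in 2.79 to 4.59% in the MOLT4 ones. That difference was -2.34 points (SE 0.325), in 8 of 8 pairs (exact permutation p = 0.0556, the smallest possible, adjusted 0.111). Both tests were added after the data were seen.

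Members were mostly scattered singly. With members at most 10 kb apart joined, 2186 (91.1%) stood alone, 86 pairs formed, and 12 clusters of 3 or more held 41 members, 1.71%. The MOLT4-only sites were alike, with 90.3% alone and 1.36% in such clusters, while 6.01% of the more numerous shared sites lay in clusters of shared sites. The number of clusters depended on the gap and lists, with 3 for a 5 kb gap, 36 for a 25 kb gap, 19 without replicate 2 of DND41 DMSO at 3 h and 2 with lists of equal length.

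The largest cluster, of 7 members, was on chromosome 7 from 38375053 to 38399065, a span of 24013 bp. ACBI-1 libraries of DND41 had a peak at 6 and 6 of the 7 at 3 h and 5 and 5 at 24 h. Its members were of ordinary width, from 271.5 to 482 bp on average in DMSO. The cluster kept more of its peaks than the 45.3% seen over all members, a difference that was not tested. No MOLT4 library, treated or not, had a peak inside it. A cluster of 4 on chromosome 18 from 60872745 to 60884317 had 4, 4, 3 and 4 of its members with a peak in the ACBI-1 libraries. A cluster of 3 on chromosome 3 from 162434877 to 162439487 had 1, 2, 2 and 1, one on chromosome 6 from 89270757 to 89277330 had 1, 2, 1 and 0, and one on chromosome 2 from 227466285 to 227474549 had 2, 2, 1 and 1. Clusters of 3 therefore ranged widely. Picked after its values were seen, a cluster on chromosome 14 from 106804868 to 106815956 had all 3 in each of the 4 libraries, and another on that chromosome from 37095340 to 37107221 had 1, 2, 0 and 0.

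Clustered held-out sites were found more often than isolated ones with either treatment. In DND41 the shares were 88.1 and 75.2% against 81.6 and 65.4% with DMSO at 3 h, and 84.3 and 76.5% against 61.6 and 59.1% at 24 h. With ACBI-1 they were 49.5 and 63.3% against 34.5 and 49.3% at 3 h, and 39.1 and 42.6% against 28.3 and 27.6% at 24 h. There were 109 and 115 clustered sites. The clustered minus the isolated share differed between arms by -0.37 points, within the spread (SE 1.90, 4 of 8 pairs, exact permutation p = 0.944, adjusted 0.944), and its sign changed without replicate 2 at 3 h (0.179) or replicate 1 at 24 h (0.685) of DND41 ACBI-1.

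Longer stretches in which only DND41 had peaks were rare too. Of the members without any MOLT4 peak, 1670 were the only member between 2 neighbouring MOLT4 regions. The longest run held 8 members, on chromosome 14 from 22382031 to 22929996. It lay in a gap of 998834 bp between MOLT4 regions, in which DND41 libraries had 29 regions and the 8 MOLT4 libraries none. Of its 8 members, 5 and 8 had a peak with ACBI-1 at 3 h and 5 and 5 at 24 h. The cluster on chromosome 7 came next with 7 members in a gap of 129062 bp. A run of 6 on chromosome 12 from 94274747 to 94402076 had 3, 4, 2 and 3 of its members with a peak under ACBI-1. Of 7 runs of 5 members, 1 on chromosome X from 146272686 to 146642673 lay in a gap of 1292911 bp and had 4, 5, 3 and 2. Whether a stretch without MOLT4 peaks is present in the MOLT4 genome was not tested, since peak positions hold no copy number. The runs were picked by size after the values were seen.

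Members were spread unevenly over chromosomes. On chromosome 18, 105 of 507 regions open in DND41 were members, 20.7%, against 9.67% over all chromosomes. Next came chromosome 21 with 14.1% and chromosome 4 with 13.2%. The lowest were chromosome 19 with 25 of 933 regions (2.68%), chromosome 17 with 2.78%, chromosome 22 with 3.88% and chromosome 20 with 4.12%. The MOLT4-only sites, at 16.8% over all chromosomes, were also lowest on chromosome 19 (8.37%), low on chromosome 22 (9.22%) and above their average on chromosomes 4 (20.8%) and 21 (20.3%). They differed from the DND41-only sites on chromosome 20, at 20.7%, and stood near their average on chromosome 18, at 17.7%. The rule fixed these shares, and no test was made. In ACBI-1 libraries, which it did not use, chromosome 18 held 2.33, 2.36, 2.25 and 2.30% of all peaks in DND41 and 1.40, 1.38, 1.04 and 1.07% in MOLT4, with no overlap between lines. DNA copy number was not measured, and its part in this was not tested. Of the members on chromosome 18, 45.7 and 72.4% had a peak with ACBI-1 at 3 h and 43.8 and 40.0% at 24 h, above the 45.1, 63.6, 37.2 and 35.4% of all members in each library. Chromosomes 4, 6 and 19 were also above all members in each library. Their means over the 4 libraries were 50.7, 54.6 and 57.0%, against 50.5% on chromosome 18. These differences were not tested.

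**Figure D5:**
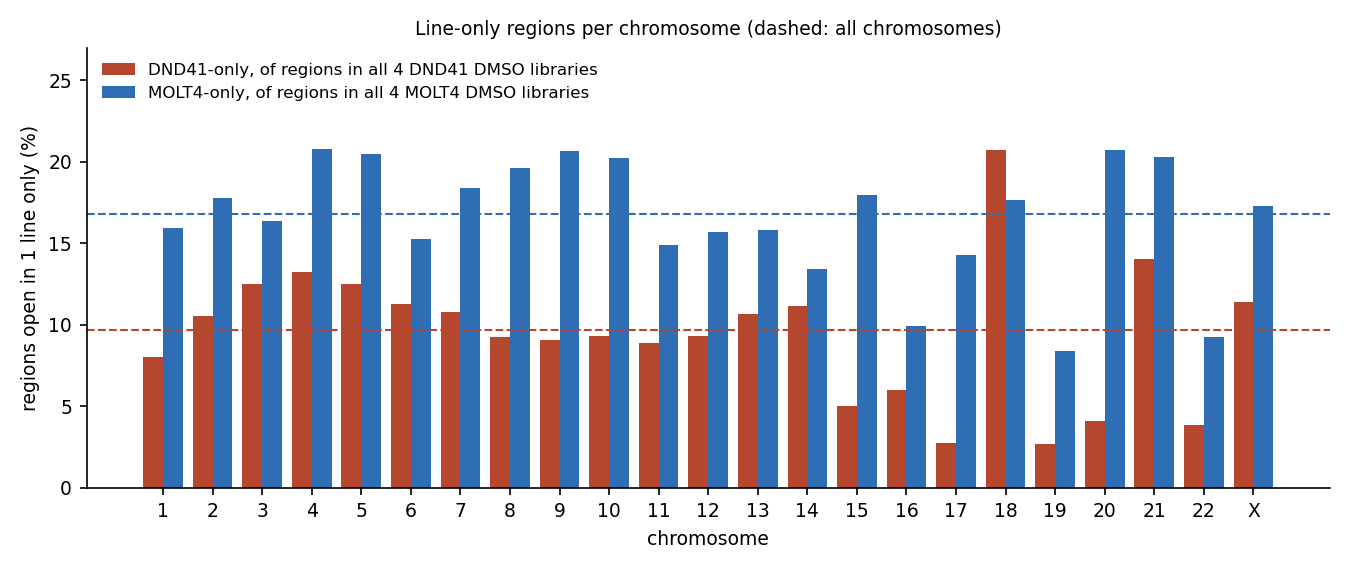
Percent of regions open in every DMSO library of a line that had no peak in the other line's 4 DMSO libraries, per chromosome, for DND41 (red) and MOLT4 (blue), with dashed lines at 9.67 and 16.8% for all chromosomes. Chromosome 18 has the highest share for DND41, at 20.7%, and chromosomes 19 and 17 the lowest.

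Libraries of the ACBI-1 arm alone gave another list of DND41-restricted regions. A peak in all 4 DND41 and no MOLT4 ACBI-1 library was found at 842 regions. Of these, 382 (45.4%) were members, which is 15.9% of the members, where 2.81% of all regions open in DND41 met that call and 0.482% of shared sites did. Members were chosen for no MOLT4 DMSO peak and shared sites for one in every MOLT4 DMSO library. At least 1 MOLT4 ACBI-1 library had a peak at 95.9% of shared sites, so the choice of sites sets part of this contrast. Fewer than 1 in 5 of the sites open only in DND41 at baseline were open only in DND41 in every treated library as well. Members give no DMSO level for this call. Held-out DND41-only sites, chosen by a looser rule, had a peak at 60.0 to 82.2% in DND41 DMSO libraries and 8.20 to 22.5% in MOLT4 ones. Some sites would therefore miss such a call in further DMSO libraries too.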

How the data were processed

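Each deposited file was the peak list of 1 ATAC-seq library, with 4 columns for chromosome, start, end and peak name. The deposited values used here were those positions and the widths computed from them. Per the submitters' processing notes, Bowtie2, Picard, SAMtools, MACS2 2.1.1.2016030 and the hg19 build were used, with no roles or settings given. Read depth and peak strength are unknown, so a missing peak may lie below a library's detection limit, and ACBI-1 lists were shorter (26145 to 33870 peaks) than DMSO lists (39117 to 46712). Peaks within a list did not overlap.

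Regions were built in Python 3.11.15 with numpy 2.4.6. The width of a region in a library is that of its widest peak there. Coordinates are counted from 1. Tests were two-sided exact permutation tests on 1 value per library, exchanging labels within time, with Benjamini-Hochberg adjustment over 8 tests and, separately, over 4 added ones. They were tested on simulated data. Alternatives were each library left out, lists of equal length, peaks of at least 170 bp (the largest minimum of any list), all sequences, regions from midpoints within 250 bp, no MOLT4 DMSO peak within 1000 bp, other exchanges, 10 width bins and other cluster gaps. Named regions were the broadest of each fate, those in most MOLT4 ACBI-1 libraries and the largest clusters. The members, lists and tests were chosen with earlier results of these data known. The gene tables at hand are on another build, so genes, sequences and motifs are not reported here.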

Additional observations from a re-analysis of the deposited data

Results flagged for a closer look

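Groups of 4 libraries, pooling the 2 times of 1 line and treatment, were checked for a single library far from the other 3 in 37 sets of values, and 2 stood out, where chance alone gives about 1 in 20. Both were replicate 1 of DND41 ACBI-1 at 3 h, the library with the shortest list, 26145 peaks. The median width of its peaks at held-out DND41-only sites was 248.5 bp, against 305, 308 and 311 bp in the other DND41 ACBI-1 libraries. Among members seen in a MOLT4 ACBI-1 library, 47.1% had a peak in it, against 69.8, 69.8 and 70.2% in the others.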

How the results depend on the processing

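Without strata for time, 70 exchanges allow an exact permutation p of 0.0286, which 4 comparisons then reached with unchanged values: 42.0 points for members in DND41 against MOLT4 with ACBI-1, -32.2 and -7.12 points for held-out DND41-only sites in DND41 and MOLT4, and -16.5 points for DND41-only minus shared sites. With a replicate block by the numbers in the titles, the exact permutation p of those 4 was 0.125, the least it can be there. The samples share only a number. The deviations of same-numbered libraries correlated at -0.15, -0.01, -0.001 and 0.02 between treatments within a line and time. Neither the block nor the exchange within time can reach 0.05. Exchange without strata can, but it treats both times as alike, although their tags, held-out sites and DMSO levels differed.

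Leaving out each library in turn gave 2399 to 3215 members, of which 24 to 38.4% had a peak in no DND41 ACBI-1 library, 14.7 to 23.8% in every one, and 7 to 12.1% in at least 1 of MOLT4. Equal list lengths gave 1508 members, with 10.5, 29.4 and 12.7%, and a common minimum width gave 22.6% with none. Lists of equal length kept the widest peaks, so the longer DMSO lists lost more narrow ones. The matched-width difference ran from -4.14 to 8.02 points over the left-out libraries. That of clustered minus isolated sites ran from -5.07 to 0.685 points, and was 5.71 with equal lists, 1.47 with regions from midpoints and 0.619 with a 5 kb gap. Fewer libraries loosen the rule for members and the choice of held-out sites by construction, and otherwise the cause was not tested. Without 1 DND41 DMSO library, the held-out choice at that time rested in DND41 on the other library alone. In the other 6 comparisons the direction was the same with each of the 16 libraries left out and under all 7 other settings. Exchanging labels without strata or in replicate blocks leaves the values unchanged, so those settings could not change a direction. For peak width, lists of equal length lean toward narrower ACBI-1 peaks by construction. A left-out library that is not part of a comparison can alter it only through how regions were joined or chosen.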

Other observations

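The members seen in MOLT4 with ACBI-1 were also described by the time at which they were seen. Of 67 members seen in MOLT4 at 3 h only, 50.7 and 71.6% had a peak in DND41 at 3 h and 59.7 and 67.2% at 24 h. Of 110 seen at 24 h only, the values were 43.6 and 65.5% at 3 h and 67.3 and 69.1% at 24 h. Of 48 seen at both times, 50 and 77.1% had a peak at 3 h and 89.6 and 77.1% at 24 h. All 3 sets lay above the members not seen in MOLT4 at 24 h, which had 33.8 and 31.8%.

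For the 24 members with a peak in 3 or 4 MOLT4 ACBI-1 libraries, median peak width in DND41 was larger at 24 h of ACBI-1 than with DMSO. It was near that of all members with a peak in these ACBI-1 libraries (345 and 350 bp). The DMSO medians cover all 24 sites and the ACBI-1 medians only those with a peak in the library, so the sites compared are not quite the same. Median widths were 279 and 249.5 bp with DMSO at 3 h, 310 and 303 bp with DMSO at 24 h, 246 and 309 bp with ACBI-1 at 3 h (13 and 17 of 24 sites) and 370 and 364.5 bp with ACBI-1 at 24 h (23 and 20 of 24 sites). None of the 24 lay within 1 kb of a MOLT4 DMSO peak. They were picked after the values were seen, and no test was made.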
